A study of Mus musculus with 18 samples.

Results

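The comparison described here is that of Fzd6-/- (KO) against wild-type (WT) digit tips at E14.5 (embryonic day), the earliest of the stages sampled. Its members are the 6 arrays labelled with this stage, 3 of KO and 3 of WT, out of 18 arrays in the series. All embryos were C57BL/6, came from crosses of Fzd6+/- parents and were labelled as mixed sex, and the KO genotype was that of the whole embryo and not of the digit alone. RNA from forelimb digit tips, taken from each of 3 embryos per genotype, was labelled with the green dye Cy3. It was hybridised against a common reference in the red dye Cy5, cell-line RNA pooled with that of 129ES stem cells. The groups at E16.5 and E18.5 had the same genotypes, tissue and reference and differed in age. The question the design puts is which RNAs already differ in the digit tip without Fzd6 at this early stage, in a series about how the nail differentiates.

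Fzd6 encodes a Frizzled receptor, a membrane protein that binds Wnt ligands. Frizzled receptors pass Wnt signals on through beta-catenin or through the planar cell polarity pathway, and Fzd6 is best known for its part in polarity, for example in the orientation of hair follicles. The nail forms from the dorsal epidermis of the digit tip, where a nail field is set apart, a matrix is laid down beneath the skin fold, and its progeny keratinise into the plate. Loss of FZD6 in people causes malformed nails.

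Values are log2 of Cy3 over Cy5, so 0 means as much signal from the digit tip as from the reference, and a rise of 1 is a doubling of that ratio. The number of arrays, 3 per genotype, limits the precision. The array carried 42006 probes of 60 bases, and between 62.2% and 69.2% of them were well above background in Cy3 on the E14.5 arrays, with no saturated Cy3 spot. The probes carry IDs that no file or table used here pairs with genes, and a few could be placed by sequence in RefSeq promoter windows. The probe for Fzd6, the gene lists and the marker genes of digit tissues were therefore not analysed here, and neither the genotype labels nor the tissue could be checked against defining genes. Probes are described by ID, sequence, level and behaviour. Fewer cells of a type and less RNA per cell cannot be told apart in such bulk samples.

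The sequences below are shown because the results turn on them: pairs of probes that overlap, and so read the same stretch of RNA, and 4 probes that share one course over the stages. In the overlapping pairs the capitals mark the bases both probes hold, and all sequences read 5′ to 3′ as the scanner files give them.

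The 2 probes of the pair with the largest rises in KO share 53 bases:
Z00073883-1: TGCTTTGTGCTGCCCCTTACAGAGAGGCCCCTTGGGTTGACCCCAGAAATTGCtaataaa
Z00071847-1: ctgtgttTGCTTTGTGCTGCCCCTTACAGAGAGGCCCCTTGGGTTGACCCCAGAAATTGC

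A pair lower in KO shares 52 bases:
Z00057992-1: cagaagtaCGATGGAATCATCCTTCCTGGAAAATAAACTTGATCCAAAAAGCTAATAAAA
Z00030528-1: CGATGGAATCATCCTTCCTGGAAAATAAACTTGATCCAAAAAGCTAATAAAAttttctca

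A further pair lower in KO shares 38 bases:
Z00030898-1: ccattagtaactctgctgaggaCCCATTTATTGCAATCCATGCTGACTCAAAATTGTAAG
Z00077299-1: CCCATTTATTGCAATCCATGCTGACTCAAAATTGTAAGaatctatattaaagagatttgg

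Of the 4 probes with one course over the stages, no pair shares a run of 25 bases:
Z00024307-1: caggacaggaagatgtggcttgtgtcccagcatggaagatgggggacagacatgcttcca
Z00074703-1: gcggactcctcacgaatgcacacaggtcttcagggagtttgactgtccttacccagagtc
Z00057834-1: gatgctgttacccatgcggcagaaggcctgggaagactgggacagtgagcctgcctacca
Z00053293-1: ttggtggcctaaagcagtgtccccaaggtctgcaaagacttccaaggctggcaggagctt

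The arrays of the 2 genotypes stood further apart than arrays of one genotype. Among the 27990 probes tested, pairs of WT arrays had 25 to 51 probes at least 2-fold apart, pairs of KO arrays 119 to 252, and pairs of a KO and a WT array 557 to 957. The least distant KO and WT arrays were the replicates numbered 3, which lay on the same slide and had 168 probes at least 2-fold higher and 389 at least 2-fold lower in KO. KO arrays also varied more than WT arrays, with a median SD of a probe of 0.12 against 0.07 on the log2 scale. KO replicate 2 stood furthest out. On it, 134 probes were at least 2-fold above both other KO arrays and 13 at least 2-fold below both, against 12 and 20 for KO replicate 1 and 4 and 47 for KO replicate 3.

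**Figure D1:**
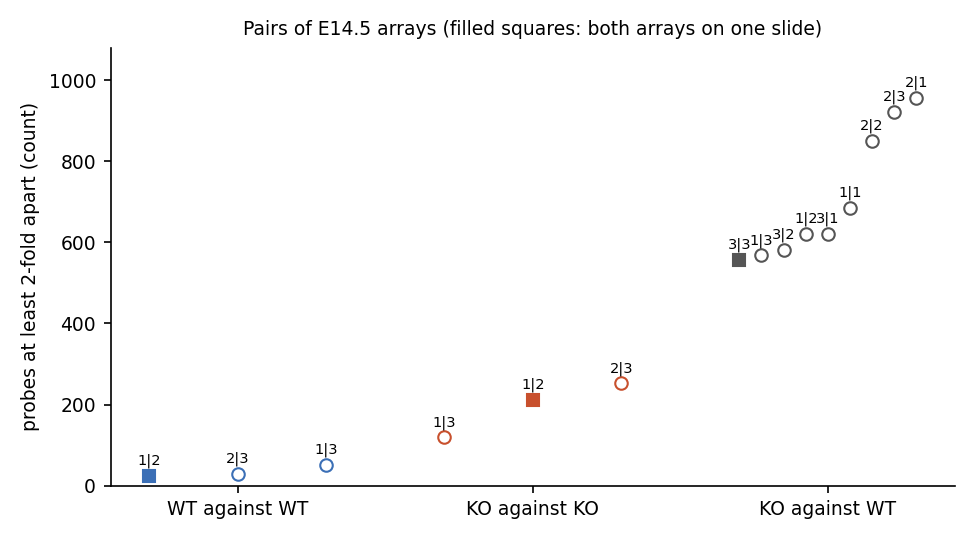
Number of tested probes at least 2-fold apart (vertical axis, count) for each pair of E14.5 arrays, grouped by genotype on the horizontal axis. Each point is 1 pair with its replicate numbers above it, and filled squares mark pairs on one slide. The WT pairs lie at 25 to 51, the KO pairs at 119 to 252 and the pairs across genotypes at 557 to 957, with the 3 pairs of KO replicate 2 highest among the last.

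At E14.5, 2503 of the 27990 probes differed between KO and WT (8.94% called, limma with Benjamini-Hochberg adjusted p under 0.05, two-sided). Of these, 1462 were lower in KO (5.22%) and 1041 higher (3.72%). The falls were the larger changes: 369 probes fell at least 2-fold and 131 rose at least 2-fold, and 83 fell and 33 rose at least 3-fold. At least 8-fold, 6 probes rose and 6 fell. These counts take fitted sizes, also for probes not well above background in one genotype, where the size is not measured. The 6 rises include Z00028661-1 and Z00027416-1, not well above background on any WT array. They also include Z00073883-1 and Z00071847-1, which overlap. Many calls were small, with 1163 of them (46.5%) under 1.5-fold, and the median was 0.53 for rises and -0.68 for falls. The 3 KO and 3 WT arrays did not overlap for 11057 probes (39.5% of those tested), and 1 called probe did overlap.

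The count of calls moved with the processing. With slide as a term, 620 probes were called, and 2503 of the 2503 calls above kept their direction, at medians of 0.50 for rises and -0.63 for falls. Direction over all calls was compared in that fit alone. It refits the same arrays, and all calls but 1 had genotypes that did not overlap. Keeping the direction was thus favoured beforehand. Centring each array on its median in place of loess gave 431 calls, the 6 E14.5 arrays fitted alone gave 5384, weighting arrays gave 6576, and leaving out 1 array gave 1452 (without WT replicate 2), 1495 (without WT replicate 1) or 1653 (without KO replicate 2) where the change was largest.

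A check within 1 slide was possible. Replicates 1 and 2 of KO and of WT lay on different slides of the first scan batch, and replicate 3 of both lay together on a slide of the second. The first batch alone called 1109 of 27944 probes (3.97%), 417 higher and 692 lower in KO. Of the 1108 with a value in the pair on the shared slide, 1096 (98.9%) differed in the same direction there, against 19639 of 27933 probes (70.3%) over all tested. The called rises had a median of 0.75 in the first batch and 0.58 in the pair, and the called falls -0.98 and -0.73. Choosing probes by their values in one batch favours larger values there, in either direction of the comparison: of 167 probes at least 2-fold higher in the pair, 97 were so in the first batch, and of 388 at least 2-fold lower, 259. Only 1 array of each genotype lay on that slide, so the pair has no replicate error of its own.

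The largest differences of the first batch were also looked up in the pair. Of 43 probes at least 4-fold lower in the first batch, 42 were lower in the pair, with a median of -2.46 in the batch and -2.20 in the pair. Of 44 probes at least 4-fold higher in the first batch, 30 (68.2%) were higher in the pair, with medians of 2.53 and 0.19. Of the 18 among these that the first batch called, 18 were higher in the pair. Of the 26 that it did not call, 21 belonged to the 134 probes that stood out on KO replicate 2.

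**Figure D2:**
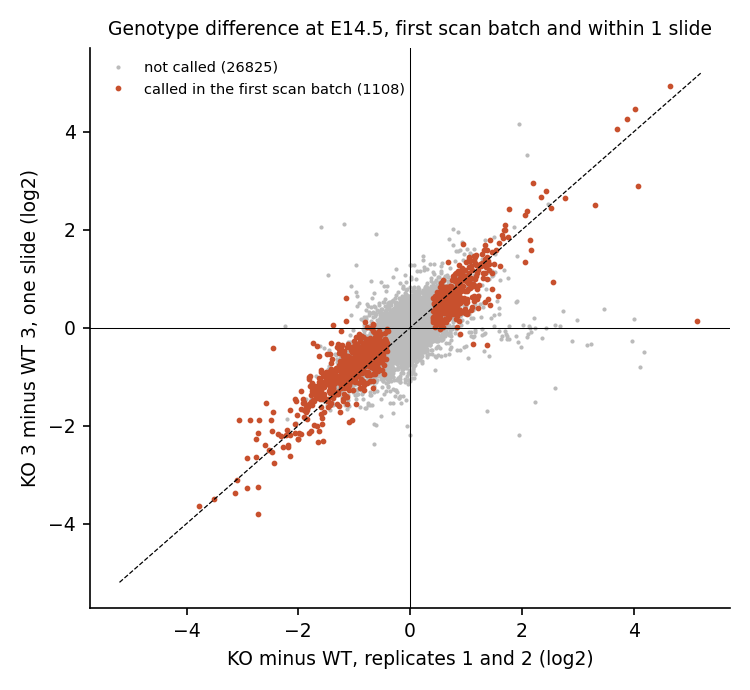
Difference KO minus WT (log2) of each probe in the first scan batch (horizontal axis, replicates 1 and 2) against the pair of replicate 3 on one slide (vertical axis). Orange points are the 1108 probes called in the first batch, grey points the rest, and the dashed line marks equal differences. Called probes lie along the line on both sides of 0, and a grey streak along the horizontal axis to the right holds rises of the first batch that are near 0 in the pair.

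The probes that stood out on KO replicate 2 were close to WT on the other KO arrays. Their median was 1.87 above the WT mean on KO replicate 2, and the higher of the other KO arrays was 0.21 above it. Of the 134, the test called 5, beside 8.94% of all tested probes. The 134 were chosen for standing at least 2-fold above both other KO arrays, which widens the KO spread. Nothing is read from the count of 5. KO replicate 1 shared its slide, and so did WT replicates 1 and 2 of E18.5, which differed by 0.07 and -0.12 from WT replicate 3 of E18.5 at the median of these probes. Z00024904-1 rose most in the first batch (5.14) and was chosen after its values were seen. It was at 3.73, 6.70 and 0.18 on KO replicates 1, 2 and 3 and at 0.09, 0.06 and 0.05 on the WT arrays, and its difference of 3.47 ± 1.21 (SE) did not pass the test (limma adjusted p = 0.0948). It was high on the KO arrays of the first batch and at the WT level on the remaining one. It was also raised on WT replicates 1 and 2 of E18.5, which lay on the same slide, at 2.09 and 2.41 against 0.39 on replicate 3, and on KO replicate 2 of E16.5, on another slide, at 4.40. Slide and genotype cannot be told apart for its values in the first batch.

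Among probes measured on all 6 arrays, the overlapping pair Z00073883-1 and Z00071847-1 rose most. Z00073883-1 was at -0.48, -0.72 and -0.62 on the KO arrays and at -4.70, -4.55 and -5.09 on the WT arrays. The RNA was thus near the reference level in KO and far below it in WT. The difference was 4.18 ± 0.48 (SE), 18.1-fold (limma adjusted p = 4.42e-05). The WT signal of Z00073883-1 was low, at a mean normalised Cy3 of 7.69 on the log2 scale against 11.7 in KO. Z00071847-1, which reads the same stretch, was 14.2-fold higher (3.83 ± 0.47, limma adjusted p = 8.18e-05). In WT the level went from -4.78 ± 0.28 (SD, n = 3) at E14.5 to -3.94 ± 0.29 at E16.5 and 1.82 ± 1.54 at E18.5 for Z00073883-1. In KO it went from -0.61 ± 0.12 to -0.29 ± 0.19 and 3.07 ± 0.18. The genotype difference was still 3.65 at E16.5, and it was 1.25 at E18.5, where it did not pass the test (limma adjusted p = 0.112). The E14.5 difference was larger than that at E18.5 by 2.92 (limma interaction contrast, adjusted p = 0.0194).

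The other rises differed in how they went on. Z00074438-1 followed a like course: it was at 1.07, 1.29 and 0.96 on the KO arrays and at -1.54, -1.64 and -1.69 on the WT arrays, 6.62-fold higher (2.73 ± 0.26, limma adjusted p = 6.74e-06). WT then went from -1.62 to -0.70 and 1.24, and KO from 1.11 to 1.52 and 1.74. Z00003494-1, at 1.29, 1.08 and 1.09 in KO and -1.48, -1.18 and -1.35 in WT, was 5.61-fold higher at E14.5. Its difference of 2.49 ± 0.19 was 0.44 at E16.5 and 0.43 at E18.5, neither of which passed the test, and it was larger at E14.5 than at E16.5 by 2.05 and than at E18.5 by 2.06 (limma adjusted p = 0.000705 and 0.000787). The KO and WT arrays of both probes did not overlap at E14.5, which the choice of named probes required.

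Z00035390-1 was higher in KO at each stage. It was at -0.28, -0.28 and 0.22 in KO and at -2.74, -2.68 and -2.58 in WT, and the difference was 2.55 ± 0.23 at E14.5, 2.57 at E16.5 and 2.02 at E18.5. Z00034836-1 was at -0.16, -0.26 and -0.28 in KO and at -2.60, -2.52 and -2.95 in WT, with differences of 2.45, 2.37 and 0.76 over the 3 stages. The E14.5 difference of Z00034836-1 exceeded the E18.5 one by 1.70 (limma adjusted p = 0.000373), while for Z00035390-1 neither difference between stages passed.

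The remaining 2 rises varied more within a genotype. Z00076280-1 was at 1.29, 1.95 and 0.62 in KO and -3.21, -1.69 and -2.27 in WT, 12.8-fold higher (3.68 ± 0.46, limma adjusted p = 8.63e-05). Its WT signal was low, at a mean normalised Cy3 of 7.46 against 10.89 in KO. Z00061782-1 was at 3.96, 3.96 and 3.95 in KO but at 2.91, 1.11 and -0.22 in WT, a spread of 1.57 (SD) between WT arrays. Its difference of 2.69 ± 0.58 (limma adjusted p = 0.00733) lost its call with slide as a term and in the first scan batch alone, with an adjusted p of 0.123 at the highest.

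Z00070639-1 fell most among probes measured on all 6 arrays. It was at -0.31, -0.26 and -0.12 in KO and at 3.53, 3.46 and 3.53 in WT, 13.3-fold lower (-3.74 ± 0.24, limma adjusted p = 1.39e-07). The signal was far above the reference in each WT digit tip and close to the reference in each KO one. The difference was -3.33 at E16.5 and -3.22 at E18.5. The KO signal at E14.5 was dim, at a mean normalised Cy3 of 7.09 on the log2 scale against 11.08 in WT. Z00077299-1, which was not well above background in KO, was at 6.25 there. The KO ratio of Z00070639-1 thus rests on dim spots. The reference channel also differed at this probe, by -0.53 (limma adjusted p = 0.000125), a size small beside that of the ratio.

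Z00056200-1 was among the brightest, at a mean normalised Cy3 of 16.16 on the log2 scale in WT and 13.49 in KO. Its ratios were -1.84, -1.69 and -2.19 in KO and 1.14, 1.17 and 1.08 in WT, a fall of 8.19-fold (-3.03 ± 0.19, limma adjusted p = 1.05e-07), and the difference was -2.76 at E16.5 and -2.33 at E18.5. Z00012139-1, at 0.75, 0.75 and 0.77 in KO and 3.52, 3.40 and 4.58 in WT, fell 8.45-fold and stayed lower later, by -3.66 and -3.23. These falls were present at each stage, with no difference between stages that passed the test.

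Z00059237-1 was at -2.29, -2.28 and -2.63 in KO and 0.35, 0.53 and 0.62 in WT, 7.46-fold lower, and its difference was -2.90 at E14.5 and -1.65 at E18.5 (an interaction of -1.25, limma adjusted p = 0.0215). Z00035731-1 had higher levels at the later stages in both genotypes. It was at -4.07, -3.95 and -4.16 in KO and -1.23, -1.29 and -1.53 in WT at E14.5, and the group means at E18.5 were 0.52 and 2.33. Its difference was -2.71 at E14.5, -2.44 at E16.5 and -1.81 at E18.5, with no change between stages that passed the test.

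Z00075041-1 was at 0.00, -0.15 and 0.06 in KO and 3.08, 2.98 and 3.16 in WT at E14.5, 8.57-fold lower (-3.10 ± 0.49, limma adjusted p = 0.000725). The call was lost with slide as a term, at a limma adjusted p of 0.139. Its KO signal at E14.5 was dim, at a mean normalised Cy3 of 7.23 against 10.18 in WT. Its KO arrays stayed near 0 at the later stages, at means of -0.09 and -0.21. WT was at 1.09 ± 1.44 (SD, n = 3) at E16.5 and 2.19 ± 0.79 at E18.5, so that WT arrays differed among themselves. Each embryo had its own array, so embryo and array effects cannot be told apart.

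The overlapping probes Z00057992-1 and Z00030528-1 had the same level in WT and different levels in KO. Z00057992-1 was at 0.75, 0.76 and 0.72 in WT and Z00030528-1 at 0.76, 0.70 and 0.75. In KO the first was at -1.77, -1.60 and -2.04 and the second at -0.60, -0.71 and -0.61. The differences were -2.55 ± 0.13 (5.85-fold, limma adjusted p = 1.12e-08) and -1.37 ± 0.12 (2.59-fold, limma adjusted p = 2.97e-06). No change of either difference between stages passed the test: the first was -2.48 at E16.5 and -2.46 at E18.5, and the second -1.34 and -1.31. The probes are offset by 8 bases, and the gap between their falls recurred at each stage. The gap itself was not tested. The size of the fall thus depends on which of the probes is read, and neither fold is given as the change in the level of the RNA.

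**Figure D3:**
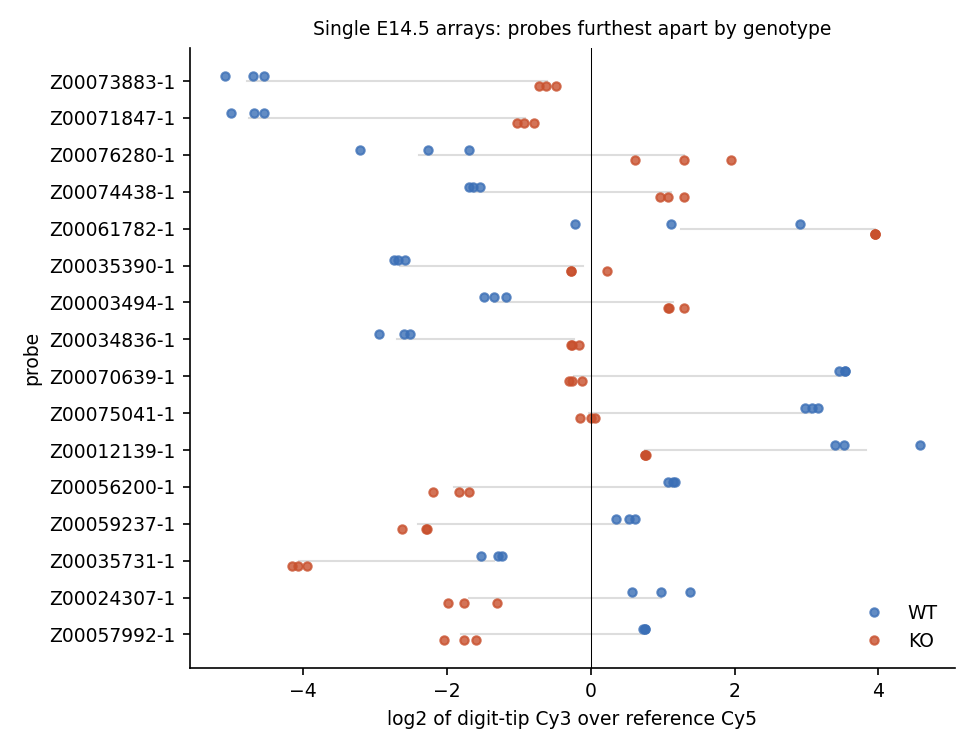
Log2 ratio of digit-tip Cy3 over reference Cy5 (horizontal axis) on each of the 6 E14.5 arrays for the 8 largest rises and 8 largest falls among called probes measured on all 6 (vertical axis). Each point is 1 array, blue for WT and orange for KO, and a grey line joins the group means. The 16 probes were chosen among those whose genotypes do not overlap, so the gap between colours is a condition and not a result. The WT arrays of Z00061782-1 are spread from -0.22 to 2.91.

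Overlapping probes were used as a check of the measurement over the whole array. Of 841 pairs of tested probes that share at least 25 bases, 125 held a called probe. In 95 of them both probes were called, and in 95 of those 95 they moved in the same direction. Of all tested probes 8.94% were called, a share that is no baseline for direction. Both probes of a pair were read on the same arrays and so share any array or embryo effect. Some probes sit in several of the 841 pairs, so the pairs are not independent and do not count separate RNAs. Over the 125 pairs, 123 had the same direction, and the median gap between the 2 differences was 0.06. Of 14 tested pairs with the same sequence, the gap was 0.03 at the median and 0.24 at the most.

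Some RNAs were measured in one genotype alone. Of 261 tested probes well above background on 3 KO and on 0 WT arrays, 45 were called higher, and of 96 with the reverse pattern 37 were called lower, beside 3.72% and 5.22% of all tested probes. The pattern itself selects for the direction, so nothing is read from these shares. For these the size is a bound, since the dim group was not well above background: the bright group's mean normalised Cy3 was set against the lowest signal that counts as well above background, or the dim probe's own where higher. No dye swap was made, so a dye effect does not cancel in these bounds.

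Z00028661-1 was at 2.27, 1.99 and 2.18 in KO, and on the WT arrays, where it was not well above background, at -2.71, -2.33 and -2.75. It was at least 20.9-fold higher in KO (limma adjusted p = 1.39e-07). WT reached 0.24 ± 0.80 (SD, n = 3) at E16.5 and 1.26 ± 0.44 at E18.5, when it was well above background on all 3 arrays of each stage, while KO stayed at 2.00 and 1.94. The fitted difference at E14.5 was larger than at E16.5 and E18.5 (limma adjusted p = 0.00184 and 0.000228), and the size of that change is not given, since the WT level at E14.5 was not well above background. This RNA was thus near its later level in KO at E14.5, when the WT signal was not well above background.

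Z00027416-1 did not follow that course. It was at 0.34, 0.51 and 0.37 in KO, at least 12.9-fold higher (limma adjusted p = 1.67e-05), and the WT arrays on which it cleared background were 0 of 3 at E14.5, 0 of 3 at E16.5 and 2 of 3 at E18.5. Z00042912-1 was at 0.25, 2.92 and 2.85 in KO, at least 5.65-fold higher over the 3 arrays, with KO replicate 1 well below the others. Its call was lost with slide as a term and in the first scan batch alone, where the adjusted p reached 0.176. Z00002719-1 was at 0.44, 0.55 and 0.73, at least 4.29-fold higher, and WT was at 0.14 at E18.5.

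In the other direction Z00077299-1 was at 2.16, 2.10 and 2.06 in WT and not well above background in KO, at least 4.05-fold lower (limma adjusted p = 0.000486). The probe that overlaps it, Z00030898-1, was well above background on all 6 arrays, at 2.36, 2.50 and 2.37 in WT and 0.19, -0.05 and 0.19 in KO, 4.92-fold lower (limma adjusted p = 0.000159). At E16.5 they were at 1.72 and 1.99 in KO and at 2.64 and 3.05 in WT. Cy5 at Z00030898-1 was lower by -0.35 on the KO arrays (limma adjusted p = 0.00652). The KO signal of Z00030898-1 at E14.5 was dim, at a mean normalised Cy3 of 6.83 against 6.25 for Z00077299-1.

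Z00062996-1 was at least 4.01-fold, Z00029872-1 at least 3.79-fold and Z00075664-1 at least 3.65-fold lower in KO. None of these 3 was well above background on any KO array at E16.5 or E18.5 either, whereas WT was above it on 3 of 3 arrays at each stage. The call of Z00062996-1 was lost with slide as a term and in the first scan batch alone, with an adjusted p of 0.0643 at the highest, while its fitted difference was -2.08 and -2.05 there and -2.01 with all arrays.

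The size of the genotype difference depended on stage for part of the probes. The difference at E14.5 departed from that at E16.5 for 447 probes (1.60% called, limma interaction contrast) and from that at E18.5 for 1851 (6.61%). Of the probes called at E14.5, 194 were among the 447, with the larger difference at E14.5 in 172. Among the 1851 were 887 of them, with the larger difference at E14.5 in 843. Of all tested probes, 8.94% were called at E14.5. Both contrasts hold the E14.5 difference by which these probes were called. The overlap and the larger size at E14.5 were thus favoured beforehand, and nothing is read from them. The sign was opposite and called at E16.5 for 36 probes and at E18.5 for 83. The counts of 447 and 1851 were 225 and 909 without WT replicate 1, 264 and 956 without WT replicate 2, 259 and 1059 without WT replicate 3, and 234 and 960 without KO replicate 2.

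For 114 probes (0.407% of those tested) the E14.5 difference was larger than at both later stages, and 94 of these were lower in KO and 20 higher. These were chosen for that pattern, so their values are a description. The 94 had a median difference of -1.08 at E14.5, -0.06 at E16.5 and 0.04 at E18.5. Their median level in WT was 0.55, 0.37 and 0.36 over the stages, and in KO -0.39, 0.62 and 0.61. KO thus stood apart at E14.5 and lay beside WT afterwards. The 20 had median differences of 1.00, 0.11 and 0.02. KO replicate 2 was the lowest KO array for 62 of the 94 (66.0%), against 676 of all 1462 lower calls (46.2%), and without it 52 probes had the pattern in place of 114. Without WT replicates 1, 2 or 3 the number was 51, 64 or 63.

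The 4 probes listed above had similar profiles. In 5 of their 6 pairs Pearson's r was 0.985 to 0.996 over the 18 arrays, which share the change with stage. The remaining pair, Z00074703-1 and Z00057834-1, did not reach 0.98, the cut used for likeness. Z00053293-1 was at 1.65, 0.84 and 1.69 in KO and 3.92, 3.54 and 3.58 in WT at E14.5, 4.88-fold lower (-2.29 ± 0.22, limma adjusted p = 8.73e-06). WT went from 3.68 to 5.73 and 6.29, and KO from 1.39 to 5.45 and 6.27. At E18.5 the digit tip held far more of this RNA than the reference in both genotypes, and the genotype difference was -0.03.

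Z00074703-1 was at 0.37, 0.07 and 0.39 in KO and 2.94, 2.94 and 2.54 in WT, a difference of -2.53 that was -0.29 at E16.5 and -0.15 at E18.5. Z00024307-1 was at -1.77, -1.99 and -1.30 in KO and 1.38, 0.98 and 0.58 in WT, a difference of -2.66, then -0.28 and -0.11. Z00057834-1 was at -2.78, -3.20 and -2.61 in KO and -0.14, -0.43 and -0.72 in WT, a difference of -2.43, then -0.84 and -0.03. Of the 4, Z00057834-1 was the one still lower in KO at E16.5 by the test (limma adjusted p = 0.0163). In WT it went from -0.43 to 4.13 and 5.13, and in KO from -2.86 to 3.29 and 5.11.

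**Figure D4:**
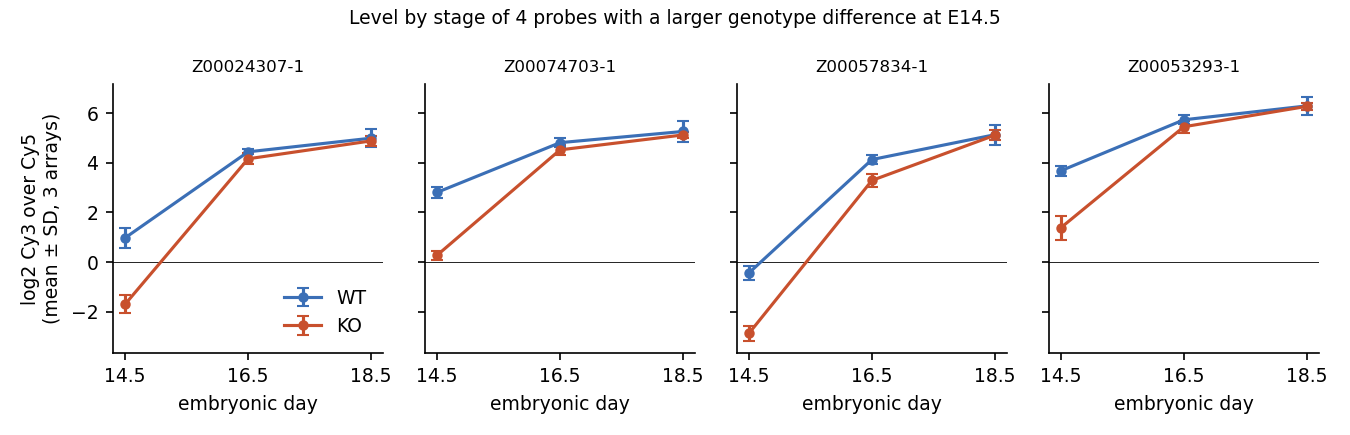
Log2 ratio of digit-tip Cy3 over reference Cy5 (vertical axis, mean ± SD of 3 arrays) by embryonic day (horizontal axis) for 4 probes, WT in blue and KO in orange. In each panel KO starts below WT at E14.5 (1.39 against 3.68 for Z00053293-1), and the lines come together by E18.5 (6.27 against 6.29).

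Of rises measured on all 6 arrays, Z00003494-1, described above, was the largest of this kind, and the next were smaller. Z00030352-1 was at 2.19, 1.38 and 2.09 in KO and 0.45, 0.37 and 0.49 in WT, 2.73-fold higher, and its difference went from 1.45 at E14.5 to 0.12 at E16.5 and -0.69 at E18.5, where KO was the lower (limma adjusted p = 0.0156). Z00075333-1 was at 1.23, 1.24 and 1.04 in KO and -0.19, -0.17 and -0.13 in WT. KO was at 1.22 at E16.5 and 1.29 at E18.5, and WT was at 1.00 and 0.92. Z00042429-1 was at -0.21, -0.07 and -0.01 in KO and -1.32, -1.26 and -1.48 in WT, with differences of 1.25, 0.31 and -0.01. Its WT signal at E14.5 was dim, at a mean normalised Cy3 of 6.75 against 7.96 in KO.

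Falls were frequent among RNAs that the WT digit tip holds in excess over the reference at later stages. The probes were put in order by their mean WT level at E16.5 and E18.5, on arrays that take no part in the E14.5 contrast except through the pooled spread, and this split was chosen after values were seen. Of 1196 probes more than 4-fold above the reference in later WT digit tips, 208 were lower in KO at E14.5 (17.4%, against 5.22% of all tested) and 8 higher (0.669%, against 3.72%). Their median difference was -0.20, against 0.00 over all tested probes. Of probes 0 to 4-fold above the reference 5.53% were lower, of those 0 to 4-fold below it 3.73%, and of those more than 4-fold below it 5.59%. The count of 208 was 52 with slide as a term or with median centring, 432 with the 6 arrays alone and 134 without WT replicate 1. The count of lower probes exceeded that of higher probes in each of those fits.

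**Figure D5:**
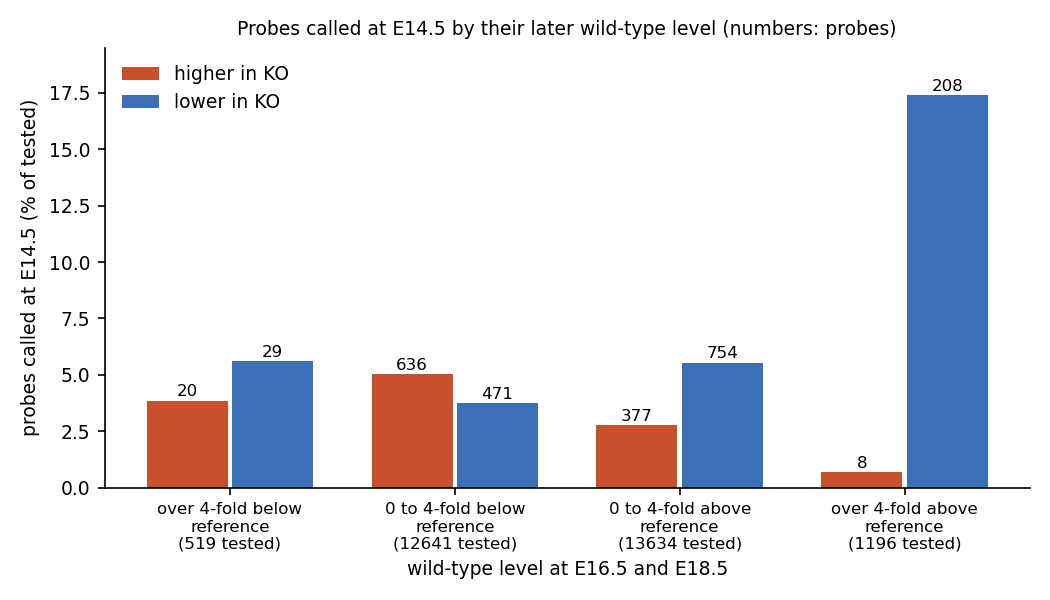
Share of tested probes called higher (orange) or lower (blue) in KO at E14.5 (vertical axis, percent), by the mean WT level of the probe at E16.5 and E18.5 relative to the reference (horizontal axis). Numbers on the bars count probes. In the band more than 4-fold above the reference 208 of 1196 probes were lower and 8 higher, and the other bands hold 3.73% to 5.59% lower.

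The reference channel, which holds the same RNA on every array, gave a measure of how far arrays differed without a digit-tip signal. In Cy5, 48 probes were called between KO and WT arrays of E14.5 (0.171%), 14 higher and 34 lower. Of these 48, 23 were also called in the ratio, beside 8.94% of all tested probes. The ratio holds the Cy5 signal, so the 2 sets of calls are not independent. Before adjustment, 2898 of the 27990 tested probes had a limma p under 0.05 in Cy5. Cy5 was quantile-normalized between arrays and the ratio was not, so the 2 are not measured alike. Sizes were smaller than in the ratio: the median over tested probes was 0.05 against 0.13, and 36 probes against 585 were at least 2-fold apart. Among probes called in the ratio the median Cy5 difference was also 0.05.

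Base composition was compared between called and other probes. The median GC content was 43.3% for rises and 43.3% for falls, against 45.0% for tested and 43.3% for all probes. The letters AATAAA, the usual polyadenylation signal, were in 11.2% of the lower and 9.61% of the higher probes, against 7.68% of tested and 6.93% of all probes, read on the strand given. A match is a description of the letters and not of a site.

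For a few probes a position was found by matching their sequence to the promoter windows of RefSeq (GRCm38.p6, 250 bases before to 50 after each start). Of 267 probes that lay whole within a window, 170 were tested and 7 were called (4.12%, against 8.94% of all tested probes), 3 higher and 4 lower. Most fell in the window of one gene and within the body of a neighbour, and either could be what they read.

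Z00075360-1, at chr4:155888885-155888944 on the plus strand, lies within the annotated spans of Ints11, a subunit of the Integrator complex that processes RNA ends, and Pusl1, which resembles pseudouridine synthases. It is shown because it was lower in KO at each stage:
Z00075360-1: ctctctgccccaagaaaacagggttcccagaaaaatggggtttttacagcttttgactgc
This probe was at -0.60, -0.43 and -0.29 in KO and 2.50, 2.30 and 2.36 in WT, and the difference was -2.83 ± 0.32 at E14.5 (limma adjusted p = 3.94e-05), -2.25 at E16.5 and -2.85 at E18.5. At E14.5 it cleared background on 1 of 3 KO arrays and 3 of 3 WT arrays, so the KO level rests mostly on dim spots.

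Z00041202-1, at chr6:35312995-35313054 within Fam180a, was at -2.50, -2.18 and -1.89 in KO and -0.51, -0.99 and -1.03 in WT. Its difference was -1.35 ± 0.26 at E14.5 (limma adjusted p = 0.00365) and -0.56 and -0.18 later, neither of which passed. Z00044170-1, at chr17:56717818-56717877 within Ndufa11, a subunit of respiratory complex I, was lower by -0.71 ± 0.16 at E14.5 (limma adjusted p = 0.0104) and by -1.15 and -1.01 later. The 3 rises were 0.51, 0.46 and 0.43 and the remaining fall -0.34.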

How the data were processed

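Per the file headers, the authors deposited Agilent Feature Extraction 9.5.1.1 output, with the mean and local background intensity of each spot in both channels. The deposited value table, on a log10 scale by its fit to the scanner ratios (slope 1, r = 1), served as an alternative. It holds 25030 probes, carries a constant per probe of unknown origin, and has column medians of 2.44, 2.44 and 2.46 (KO replicates 1 to 3) and 2.45, 2.45 and 2.45 (WT).

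In R 4.3.3 with limma 3.58.1, intensities were background-corrected (normexp, offset 50) and loess-normalized within array. Control spots (1417 of 43451, weight 0 in loess) and outlier spots (2 to 34 per array) were left out and spots of a probe averaged. A probe was tested if the software's Cy3 flag put it well above background on each array of 1 or more groups and every group had 2 or more values. The fit took 18 arrays and a mean for each group (lmFit, eBayes, 12 residual degrees of freedom), adjusted by Benjamini-Hochberg. The fit was tested on simulated data. Cy5 alone was quantile-normalized.

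Named probes had an adjusted p under 0.05, genotypes that did not overlap and one direction in both scan batches. They are the 8 largest changes each way measured on all 6 arrays, the 4 largest bounds each way, the 3 largest each way that were measured on all 6 arrays, exceeded both later stages and were not yet named, and probes overlapping these by at least 25 bases. Probes in promoter windows, Z00024904-1 and the split by WT level were added after values were seen. Members and lists were chosen with earlier results of these data known. Alternatives covered background, normalization, filter, array set, weights, slide, scan batch, replicate block and each array left out. Same-numbered KO and WT arrays deviated together at r = -0.22, 0.24 and 0.07, so the numbers were not taken as pairs.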

Additional observations from a re-analysis of the deposited data

Results flagged for a closer look

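The genotype difference changed with stage by a test of the change itself (limma interaction contrasts, adjusted p under 0.05) for 447 probes between E14.5 and E16.5 and for 1851 between E14.5 and E18.5.

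Among the probes described above, the E14.5 difference minus the E16.5 difference (log2) was 2.05 for Z00003494-1, 2.99 for Z00028661-1, 1.33 for Z00030352-1, 1.12 for Z00075333-1 and 0.94 for Z00042429-1. It was -2.38 for Z00024307-1, -2.24 for Z00074703-1, -1.59 for Z00057834-1 and -2.01 for Z00053293-1.

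The E14.5 difference minus the E18.5 difference (log2) was 2.92 for Z00073883-1, 2.61 for Z00071847-1, 2.23 for Z00074438-1, 2.06 for Z00003494-1, 1.70 for Z00034836-1, 4.06 for Z00028661-1, 1.54 for Z00002719-1, 2.14 for Z00030352-1, 0.96 for Z00075333-1 and 1.26 for Z00042429-1. It was -1.25 for Z00059237-1, -2.56 for Z00024307-1, -1.10 for Z00075664-1, -2.38 for Z00074703-1, -2.41 for Z00057834-1 and -2.26 for Z00053293-1.

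The values for Z00028661-1, Z00002719-1 and Z00075664-1 are fitted values and no measured sizes, because 1 genotype was not well above background at E14.5 on any array.

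In the Cy5 channel, which holds reference RNA on every array, 48 probes were called between the arrays of KO and WT at E14.5. Of these, 23 were also called in the ratio, where 8.94% of all tested probes were called. Z00070639-1 and Z00030898-1 were among the 23.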

How the results depend on the processing

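The 2503 calls became 3946 without background subtraction, 431 with median centring, 5384 with the 6 E14.5 arrays alone, 6576 with array weights, 620 with slide as a term, 1109 in the first scan batch, and 1452 to 2051 with 1 array left out. The 208 lower probes of the band more than 4-fold above the reference were 369, 52, 432, 407, 52 and 129 in those fits in turn, 330 with Cy3 alone and 134 to 184 with 1 array left out. For the differences from E16.5 (447) and E18.5 (1851) the counts were 1210 and 3049 without background subtraction, 53 and 119 with median centring, 1200 and 4873 with array weights, and 225 to 385 and 909 to 1485 with 1 array left out. The first was 803 with the software's processed signals and 1198 with Cy3 alone. The 114 probes with a larger difference at E14.5 than at both later stages were 302 without background subtraction, 228 with processed signals, 5 with median centring, 245 with Cy3 alone, 183 in the value table, 341 with array weights and 51 to 130 with 1 array left out. Cy5 calls went from 48 to 13 with median centring and 84 with slide as a term. The share of first-batch calls with the same direction in the pair (98.9%) was 97.0% without background subtraction, 95.2% with processed signals, 100% of 37 probes with median centring, 96.9% with Cy3 alone and 95.2% in the value table. The cause was not tested.

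With the replicate block, 2315 probes were called, 2041 of them among the 2503, and the counts for E16.5, E18.5 and the 114 were 361, 1871 and 89. Other alternatives left the counts within 1.5 times. Of 615 values of the named probes under the alternatives, 608 kept direction and side of the threshold, 7 lost the call and 0 turned. The named probes were chosen for a call and one direction in both scan batches, and the alternatives refit the same arrays. Keeping the direction was thus favoured beforehand. Of all 2503 calls, 603 were also called with slide as a term and 428 with median centring. Slide as a term could be fitted for the E14.5 contrast and not for the differences between stages. Signal over background limits the 82 called probes dim in one genotype to bounds.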
